A study of Mus musculus with 8 samples.

Results

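The retinoid genes described here are 9 genes of vitamin A metabolism, binding and reception: Rbp4, Retsat, Adh1, Aldh1a1, Aldh1a3, Crabp1, Crabp2, Rara and Rarb. They were taken by symbol from the array annotation, which pairs 12 of the 22690 probe sets with them. Retsat has 2 probe sets, Aldh1a3 has 3 and each of the others has 1. Of the 9 genes, 8 passed the filter on low values that was applied to all 12393 genes measured, and Rarb did not.

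The cells were adipocytes that had been differentiated from SV (stromal-vascular) cells taken from the inguinal white fat, a depot under the skin, of C57BL/6J male mice. They expressed sh-PRDM16, an shRNA named for the co-regulator of brown fat genes PRDM16, or the control shRNA sh-scr. The agent was 1 µM rosiglitazone, a thiazolidinedione that activates the nuclear receptor PPARγ, or none. The 4 groups, sh-PRDM16 with rosiglitazone (treated sh-PRDM16), sh-PRDM16 without it (untreated sh-PRDM16), sh-scr with rosiglitazone (treated sh-scr) and sh-scr without it (untreated sh-scr), had 2 Affymetrix mouse 430A_2 arrays each. The labels call the 2 arrays of a group biological replicates and do not say whether they came from separate mice or cultures. They name 1 shRNA against PRDM16, and the annotation pairs no probe set with Prdm16, so the targeted RNA was not analysed here. Array medians ranged from 101 to 136 intensity units, and the correlation across probe sets was 0.9905 to 0.9915 between replicate arrays and no higher than 0.984 between arrays of different groups. Of the adipocyte markers, Adipoq lay between 9965.3 and 15190.7 and Fabp4 between 16409.9 and 22736.2 on all arrays. Others were dimmer, such as Cidec at 234.5 and 221.7 and Lipe at 558.1 and 443.1 in untreated sh-PRDM16 cells. Some fibroblast and smooth muscle markers were also bright on all arrays, with Col3a1 between 16995.1 and 20893.5 and Acta2 between 13486.0 and 17706.1. The share of adipocytes in the cultures was not tested.

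Retinoids are vitamin A and its derivatives. Retinol circulates bound to RBP4, is stored in cells as fatty acid esters, and is oxidised first to retinaldehyde by alcohol and retinol dehydrogenases and then, irreversibly, to retinoic acid by retinaldehyde dehydrogenases of the ALDH1A family. Retinoic acid is carried in the cytosol by the CRABP proteins and binds the RAR nuclear receptors, which act as dimers with RXR receptors, the same partners that PPARγ uses. Fat is a storage site of retinol and a source of RBP4, and Retsat, a retinol saturase, is known as a PPARγ target that rises during adipocyte differentiation.

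RefSeq promoter windows (build GRCm38.p6, 250 bases before to 50 after each annotated start) were at hand for 7 of the 9 genes, in 12 windows; Crabp2 and Aldh1a3 are named only. A script searched both strands for 5 motifs: TATAAA, the nuclear receptor hexamer AGGTCA, and the direct repeats DR1, DR2 and DR5. A direct repeat joined any 2 of 4 hexamers, which were AGGTCA itself and its variants AGTTCA (an inner T), GGGTCA (a leading G) or GGTTCA (with both), with 1, 2 or 5 bases in between, and could overlap an AGGTCA match. The 250 bases before the start are printed for Retsat and Adh1, the members that rose together with rosiglitazone, and for Rarb, the member with a DR5 match. Capitals mark a match.
Retsat, chr6:72598352-72598601, plus strand: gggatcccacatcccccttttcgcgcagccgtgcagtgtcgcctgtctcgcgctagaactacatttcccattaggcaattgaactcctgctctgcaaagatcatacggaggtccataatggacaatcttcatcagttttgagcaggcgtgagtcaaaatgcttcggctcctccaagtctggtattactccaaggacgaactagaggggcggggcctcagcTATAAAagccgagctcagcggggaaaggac
Adh1, chr3:138277335-138277584, plus strand: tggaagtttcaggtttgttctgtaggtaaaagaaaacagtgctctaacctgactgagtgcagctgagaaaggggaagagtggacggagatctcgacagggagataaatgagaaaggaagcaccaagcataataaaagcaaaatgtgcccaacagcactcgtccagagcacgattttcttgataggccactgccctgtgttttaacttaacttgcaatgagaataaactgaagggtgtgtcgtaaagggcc
Rarb, chr14:16575477-16575726, minus strand: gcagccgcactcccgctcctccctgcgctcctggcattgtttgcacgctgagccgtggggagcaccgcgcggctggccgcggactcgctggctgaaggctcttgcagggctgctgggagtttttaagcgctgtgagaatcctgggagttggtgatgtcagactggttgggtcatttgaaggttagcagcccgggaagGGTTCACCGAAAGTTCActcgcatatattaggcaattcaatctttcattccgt
The Retsat window held TATAAA with its first base at position -30 from the start, and among the members only Rbp4 held it too, against 13.6% of all 32851 windows. The Adh1 window held none of the 5 motifs. The DR5 match of Rarb, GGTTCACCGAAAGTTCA, began at position -53. DR5 matches occurred in 0.0974% of all windows, DR1 in 0.222% and DR2 in 0.268%, and no member window held DR1 or DR2. AGGTCA occurred in 16.3% of all windows and, among the members, in a single window of Rara. A match of letters is a description of the window and not a measured binding site.

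**Figure D1:**
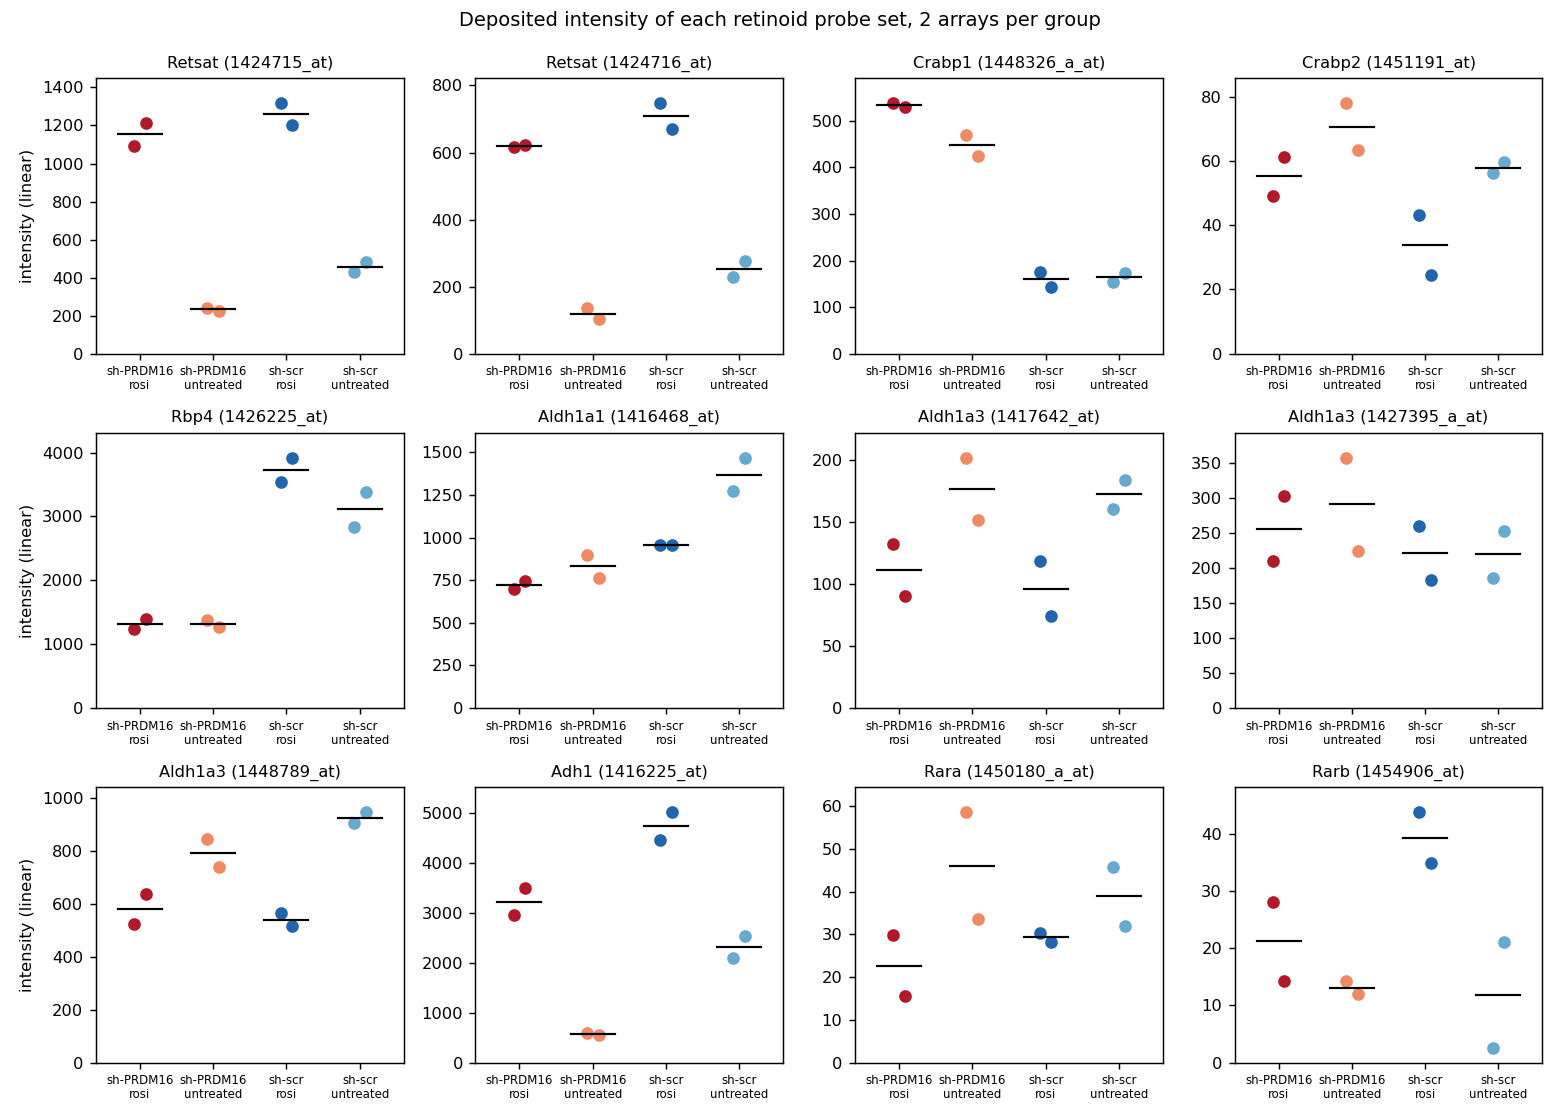
Deposited intensity (linear axis from 0, scales differ between panels) of the 12 probe sets of the 9 retinoid genes. Points are single arrays, 2 per group, and the bar is their mean. Retsat and Adh1 are high in both treated groups, Crabp1 is high in both sh-PRDM16 groups and Rbp4 is high in both sh-scr groups.

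The levels followed a few patterns across the groups. Retsat and Adh1 were higher with rosiglitazone in both kinds of cell, Rbp4 was lower and Crabp1 higher in sh-PRDM16 cells whether or not the drug was present, and Aldh1a1 and Aldh1a3 had smaller changes. Changes below are log2 changes of intensity + 16 from 1 limma fit of all 8 arrays, with Benjamini-Hochberg adjustment over 9294 genes and a threshold of adjusted p 0.05, and are called passing the test on the deposited scale unless stated otherwise. The deposited scale itself moved: the median change of all genes was -0.31 with rosiglitazone in sh-scr cells, 0.00 in sh-PRDM16 cells, 0.15 for sh-PRDM16 over sh-scr with rosiglitazone and -0.16 without it, and it lay between -0.02 and 0.03 once each array was centred on its median. Each call is therefore given with its median-centred counterpart where the outcomes differ. In bulk RNA, fewer cells of a type and less RNA per cell cannot be told apart.

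Rbp4, the secreted retinol carrier that fat releases into blood, was set apart by the shRNA. Its intensity was 1233.5 and 1399.7 in treated sh-PRDM16 cells and 1384.1 and 1264.8 in untreated sh-PRDM16 cells, against 3545.7 and 3916.4 in treated sh-scr cells and 2839.8 and 3390.4 in untreated sh-scr cells. Every sh-PRDM16 array was below every sh-scr array. Rbp4 fell by 1.49 (SE 0.15) in sh-PRDM16 cells with rosiglitazone, adjusted p 0.000393 in limma, and by 1.22 (SE 0.15) without it, adjusted p 0.000703 in limma. The first change is a level 2.81-fold lower and the second 2.33-fold lower in sh-PRDM16 cells. With rosiglitazone the change in sh-PRDM16 cells was -0.01 (95% interval -0.34 to 0.32) and the change in sh-scr cells was 0.26 (95% interval -0.06 to 0.59). Neither passed the test on the deposited scale, and on median-centred arrays the change in sh-scr cells was 0.56 and passed with adjusted p 0.0115 in limma. The difference between these responses, -0.27 (95% interval -0.74 to 0.19), did not pass.

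Retsat, which reduces retinol to dihydroretinol, answered the drug in both kinds of cell. Its brighter probe set read 1090.1 and 1215.6 in treated sh-PRDM16 cells against 239.2 and 225.5 in untreated sh-PRDM16 cells, and 1315.8 and 1201.8 in treated sh-scr cells against 431.3 and 482.5 in untreated sh-scr cells. The untreated groups did not overlap with each other or with the treated groups, while the treated groups overlapped. Retsat rose by 2.23 (SE 0.13), or 4.70-fold, in sh-PRDM16 cells and by 1.43 (SE 0.13), or 2.70-fold, in sh-scr cells (limma, adjusted p 1.2e-05 and 0.000272). Without the drug it fell by 0.93 (SE 0.13) in sh-PRDM16 against sh-scr cells, adjusted p 0.00186 in limma. With the drug the change was -0.13 (95% interval -0.43 to 0.17), adjusted p 0.532 in limma, and -0.25 with adjusted p 0.0496 on median-centred arrays. The other Retsat probe set gave 2.24, 1.44, -0.99 and -0.19 in the same order, so both probe sets gave like sizes. It read 615.0 and 622.4 in treated sh-PRDM16 cells against 746.3 and 669.6 in treated sh-scr cells, which did not overlap.

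Adh1, the class I alcohol dehydrogenase that oxidises retinol and other alcohols, followed Retsat in direction. Its intensity was 2953.2 and 3496.8 in treated sh-PRDM16 cells against 590.2 and 555.2 in untreated sh-PRDM16 cells, and 4455.5 and 5010.7 in treated sh-scr cells against 2090.6 and 2540.9 in untreated sh-scr cells. None of the 4 groups overlapped, and the order from low to high was untreated sh-PRDM16, untreated sh-scr, treated sh-PRDM16 and treated sh-scr. Adh1 rose by 2.46 (SE 0.15) in sh-PRDM16 cells and by 1.03 (SE 0.15) in sh-scr cells (limma, adjusted p 1.5e-05 and 0.00229). These are rises of 5.49-fold and 2.04-fold. Between the shRNAs it fell by 1.98 (SE 0.15) in sh-PRDM16 cells without rosiglitazone, adjusted p 9.2e-05 in limma, and by 0.55 (SE 0.15) with it, adjusted p 0.0403 in limma. The call with rosiglitazone was lost without any 1 of the 4 treated arrays, where the change lay between -0.68 and -0.43. It was also lost with no filter, with pseudocount 1 and in the fit of every probe set (limma, adjusted p 0.0774, 0.0630 and 0.0567).

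Adipocyte markers moved beside the untreated difference of Retsat, Adh1 and Rbp4. The summed intensity of the 7 measured markers was 55382.5 and 59404.5 in treated sh-PRDM16 cells, 48378.9 and 42064.6 in untreated sh-PRDM16 cells, 61902.0 and 65487.1 in treated sh-scr cells, and 62849.9 and 62554.5 in untreated sh-scr cells. Of these 7, 5 fell in sh-PRDM16 cells without rosiglitazone (Adipoq, Cebpa, Cidec, Lipe and Pparg) and 1 fell with it (Cidec), where 5 fell on median-centred arrays (Cebpa, Cidec, Lipe, Lpl and Pparg). Macrophage and leukocyte markers (10 measured) summed to 858.5 and 903.5, 1153.9 and 1077.0, 3349.3 and 3353.5, and 5156.5 and 5604.0 in the same groups, and 7 of the 9 tested fell in sh-PRDM16 cells without rosiglitazone and 8 of 9 with it. On the deposited scale 15.5% of all genes were lower in sh-PRDM16 cells without rosiglitazone and 4.62% with it. On median-centred arrays 1141 of 9294 genes were lower with it. Brown and beige markers (6 measured) summed to 3745.3 and 4406.8 in treated sh-PRDM16 cells, 226.4 and 260.9 in untreated sh-PRDM16 cells, 9371.1 and 9922.5 in treated sh-scr cells, and 909.3 and 1066.6 in untreated sh-scr cells. Preadipocyte and fibroblast markers (9 measured) summed to 42440.4 and 43910.0 in treated sh-PRDM16 cells against 53545.1 and 47850.7 in untreated sh-PRDM16 cells, and to 38033.4 and 36468.4 in treated sh-scr cells against 54139.0 and 53955.8 in untreated sh-scr cells. With rosiglitazone 2 of the 9 fell in sh-PRDM16 cells and 7 in sh-scr cells, or 6 and 4 on median-centred arrays, beside the lower Aldh1a1, Aldh1a3 and Crabp2 values of treated cells. Of all genes, 3.31% fell in sh-PRDM16 cells and 32.2% in sh-scr cells on the deposited scale. On median-centred arrays 917 of 9294 genes fell in sh-PRDM16 cells and 1103 in sh-scr cells. Smooth muscle and pericyte markers (6 measured) summed to 25405.1 and 25618.2 in treated against 29039.5 and 26952.5 in untreated sh-PRDM16 cells. In sh-scr cells they summed to 21147.6 and 20160.5 treated against 29230.4 and 28349.8 untreated. Endothelial sums were also lower with the drug in both kinds of cell. Mesothelial sums were higher, but Krt19 made up most of each sum, and the mesothelial markers did not move together. Msln read 17.5 and 17.2 in treated against 20.9 and 27.7 in untreated sh-PRDM16 cells. In sh-scr cells it read 9.5 and 21.9 treated against 33.8 and 41.5 untreated. Wt1 was lower with the drug in sh-scr cells and overlapped in sh-PRDM16 cells. Upk3b, which was dim, was higher in both. The part of these cell markers in the changes of the retinoid genes was not tested. Liver markers, for the organ in which Rbp4 and Adh1 are best known, summed to between 52.6 and 130.3 over 5 genes on all arrays.

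Aldh1a1 and Aldh1a3 make retinoic acid from retinaldehyde. Aldh1a1 read 701.1 and 744.8 in treated sh-PRDM16 cells, 896.2 and 764.9 in untreated sh-PRDM16 cells, 957.7 and 955.3 in treated sh-scr cells, and 1270.9 and 1467.0 in untreated sh-scr cells. All sh-PRDM16 arrays were below all sh-scr arrays, and within each shRNA the treated arrays were below the untreated ones. Aldh1a1 fell by 0.71 (SE 0.14) in sh-PRDM16 cells without rosiglitazone, adjusted p 0.00838 in limma. That call was lost without replicate 2 of untreated sh-scr (-0.61, adjusted p 0.0875) or without replicate 2 of untreated sh-PRDM16 (-0.60, adjusted p 0.0515). With rosiglitazone the shRNA difference was -0.40 (adjusted p 0.0818 in limma), and on median-centred arrays -0.52, which passed with adjusted p 0.00633. The drug's change was -0.19 (95% interval -0.50 to 0.12) in sh-PRDM16 cells and -0.51 (SE 0.14) in sh-scr cells, where it passed with adjusted p 0.0218 in limma. The sh-scr call was not kept on median-centred arrays (-0.21, adjusted p 0.0854) or without any 1 of the 4 sh-scr arrays (-0.61 to -0.40, adjusted p 0.0518 to 0.160).

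In its brightest probe set Aldh1a3 passed the test for the drug in sh-scr cells and for the shRNA in neither comparison. That probe set read 523.6 and 638.6 in treated sh-PRDM16 cells against 845.0 and 737.7 in untreated sh-PRDM16 cells, and 566.3 and 515.5 in treated sh-scr cells against 904.8 and 945.8 in untreated sh-scr cells. Treated and untreated arrays did not overlap within either shRNA. It fell by 0.76 (SE 0.15) with rosiglitazone in sh-scr cells, adjusted p 0.00661 in limma, a call that was lost when the mean of its probe sets was used (-0.51, adjusted p 0.0546). In sh-PRDM16 cells its change was -0.44 (SE 0.15) with adjusted p 0.0808 on the deposited scale, and it passed on median-centred arrays (-0.46, adjusted p 0.00713), where the sh-scr change was -0.47. The shRNA difference was 0.10 with rosiglitazone (95% interval -0.23 to 0.42) and -0.22 without it (95% interval -0.55 to 0.10). The probe sets disagreed. A second one, at 132.0 and 90.1, 201.6 and 151.5, 118.5 and 73.9, and 160.5 and 183.9 in treated sh-PRDM16, untreated sh-PRDM16, treated sh-scr and untreated sh-scr cells, fell by 0.77 in sh-scr cells (adjusted p 0.0412 over all probe sets in limma). On median-centred arrays that change was -0.48 and did not pass (adjusted p 0.209 over all probe sets in limma). The third, at 209.9 and 303.4, 357.7 and 224.8, 260.9 and 183.7, and 186.7 and 253.2 in the same groups, changed by 0.01 (adjusted p 0.981 in limma).

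The CRABP proteins bind retinoic acid in the cytosol, where CRABP2 is known to pass it to RAR receptors. Crabp1 intensity was 537.5 and 530.4 in treated sh-PRDM16 cells and 469.0 and 425.6 in untreated sh-PRDM16 cells, against 175.8 and 143.2 in treated sh-scr cells and 154.9 and 173.8 in untreated sh-scr cells. The lowest sh-PRDM16 array was above every sh-scr array. Crabp1 rose by 1.65 (SE 0.14) in sh-PRDM16 cells with rosiglitazone, adjusted p 0.000185 in limma, and by 1.36 (SE 0.14) without it, adjusted p 0.000409 in limma. These are levels 3.15-fold and 2.57-fold higher in sh-PRDM16 cells. With the drug its change was 0.25 (95% interval -0.07 to 0.57) in sh-PRDM16 cells and -0.04 (95% interval -0.36 to 0.28) in sh-scr cells, and the change in sh-scr cells was 0.25 on median-centred arrays. Neither passed the test.

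Crabp2 was dim, at 49.2 and 61.3 in treated sh-PRDM16 cells, 77.9 and 63.5 in untreated sh-PRDM16 cells, 43.3 and 24.6 in treated sh-scr cells and 56.1 and 59.8 in untreated sh-scr cells. It fell by 0.59 (SE 0.19) with rosiglitazone in sh-scr cells, adjusted p 0.0383 in limma. That call was lost on median-centred and on quantile-normalized arrays (-0.30 and -0.40, limma, adjusted p 0.188 and 0.1175). It was also lost with no filter, pseudocount 1, a trended prior, only the 4 arrays compared, or every probe set. Without replicate 1 or 2 of untreated sh-scr (-0.63 and -0.56) or replicate 2 of treated sh-scr (-0.32) it was lost too. In sh-PRDM16 cells the drug's change was -0.28 (95% interval -0.71 to 0.15), and the shRNA difference was 0.53 with the drug and 0.22 without it, with adjusted p 0.0875 and 0.471 in limma.

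Of the retinoic acid receptors, Rara and Rarb were near the floor of the arrays, where between 22.0 and 25.2% of probe sets lay below the pseudocount of 16. Rara read 29.9 and 15.5 in treated sh-PRDM16 cells, 58.5 and 33.6 in untreated sh-PRDM16 cells, 30.4 and 28.3 in treated sh-scr cells and 45.8 and 31.9 in untreated sh-scr cells. Within each shRNA both treated arrays were below both untreated arrays, and its changes of -0.68 (SE 0.24) in sh-PRDM16 and -0.26 (SE 0.24) in sh-scr cells did not pass (limma, adjusted p 0.0943 and 0.383). Rarb, a textbook retinoic acid target known for a DR5 element in its promoter, read 28.0 and 14.3 in treated sh-PRDM16 cells, 14.2 and 11.9 in untreated sh-PRDM16 cells, 43.7 and 34.9 in treated sh-scr cells, and 2.6 and 21.1 in untreated sh-scr cells. The treated sh-scr arrays stood above all others. In the fit of every probe set its change with rosiglitazone in sh-scr cells was 1.07 (SE 0.30) with adjusted p 0.0314, and in the gene fit with no filter the same change had adjusted p 0.0572 in limma. Rarb failed the gene filter, and its highest values were those of treated sh-scr cells. The call in the fit of every probe set is therefore read as no result. In sh-PRDM16 cells the change of Rarb was 0.33 (95% interval -0.36 to 1.02), and the shRNA differences of -0.59 with and 0.14 without rosiglitazone did not pass.

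**Figure D2:**
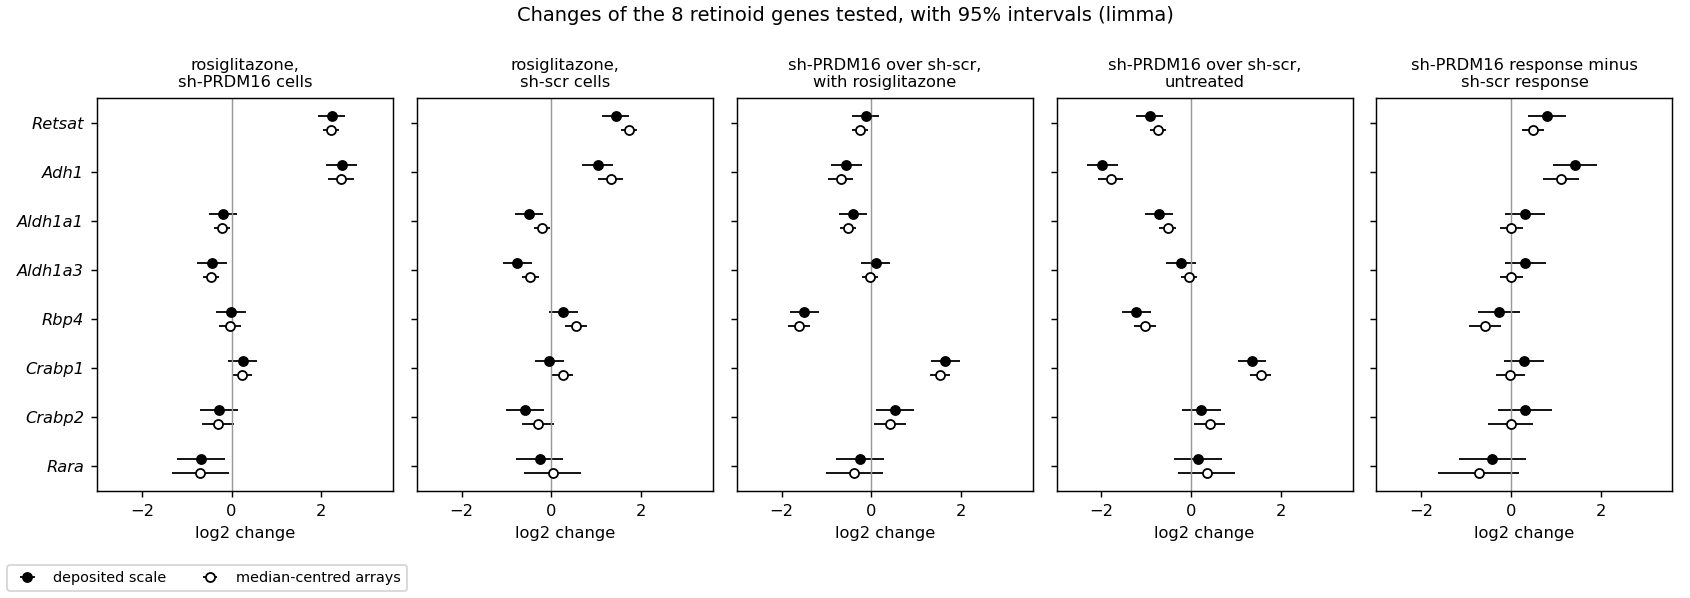
Log2 change (x axis) of the 8 retinoid genes tested in the 5 comparisons, with limma 95% intervals, on the deposited scale (filled) and on median-centred arrays (open). Retsat and Adh1 lie at 1.03 or above in both drug comparisons, and Crabp1 and Rbp4 lie on opposite sides of 0 in both shRNA comparisons.

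Counted over the 8 genes tested, rosiglitazone in sh-PRDM16 cells raised 2 (Adh1 and Retsat) and lowered none in limma on the deposited scale. At an unadjusted p under 0.05 in limma 2 were lower, beside 2554 of 9294 genes that changed in either direction. Of all genes, 10.1% rose, 3.31% fell and 13.4% were called. On median-centred arrays 3 were called, with Aldh1a3 lower, against 24.4% of all genes. In sh-scr cells rosiglitazone raised 2 (Adh1 and Retsat) and lowered 3 (Aldh1a1, Aldh1a3 and Crabp2), where 5.2% of all genes rose, 32.2% fell and 37.4% were called. On median-centred arrays 3 rose (Adh1, Rbp4 and Retsat) and 1 fell (Aldh1a3), against 26.1% of all genes called. The share of members that fell in sh-scr cells thus stood close to the background on the deposited scale. Once arrays were centred it was 1 of 8, beside 1103 of 9294 genes, again close to the background. Of all genes 1322 rose there. Without replicate 1 or 2 of untreated sh-scr, or without replicate 2 of treated sh-scr, 3 members were called in sh-scr cells in place of 5.

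In sh-PRDM16 against sh-scr cells with rosiglitazone, 1 member was higher (Crabp1) and 2 were lower (Adh1 and Rbp4), where 10.6% of all genes were higher, 4.62% lower and 15.2% called. On median-centred arrays 4 were lower, with Aldh1a1 and Retsat added. Of all 9294 genes, 1146 were higher there and 1141 lower, and 24.6% were called. Without rosiglitazone 1 was higher (Crabp1) and 4 were lower (Adh1, Aldh1a1, Rbp4 and Retsat), on both scales. Of all genes, 1.99% were higher, 15.5% lower and 17.5% called on the deposited scale. On median-centred arrays 818 of 9294 genes were higher and 1170 lower, and 21.4% were called. The drug comparisons and the shRNA comparisons share arrays, so their counts are not independent of each other.

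The response itself differed between the shRNAs for Adh1. The sh-PRDM16 response minus the sh-scr response was 1.43 (SE 0.22, 95% interval 0.94 to 1.91), with adjusted p 0.0331 in limma, against a median of 0.33 over all genes. Adh1 was 1 of 8 members called, where 0.667% of all genes were called. On median-centred arrays the difference was 1.12 with adjusted p 0.0822, no member passed in limma, and 0.0538% of all genes did. At an unadjusted p under 0.05 in limma, 2 members were higher and 1 lower there, beside 1244 of 9294 genes in either direction. The call was also lost without replicate 2 of untreated sh-scr (1.29, adjusted p 0.0671), replicate 2 of treated sh-scr (1.51, 0.0507), replicate 1 of untreated sh-PRDM16 (1.47, 0.0547), replicate 2 of untreated sh-PRDM16 (1.38, 0.158) or replicate 2 of treated sh-PRDM16 (1.30, 0.103). Retsat differed by 0.80 (95% interval 0.38 to 1.23) with adjusted p 0.0907 in limma. The differences of the other 6 genes lay between -0.41 for Rara and 0.32 for Aldh1a3, and none passed. In the brighter Retsat probe set the treated levels overlapped between the shRNAs and the untreated levels did not, while in the other probe set neither overlapped.

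**Figure D3:**
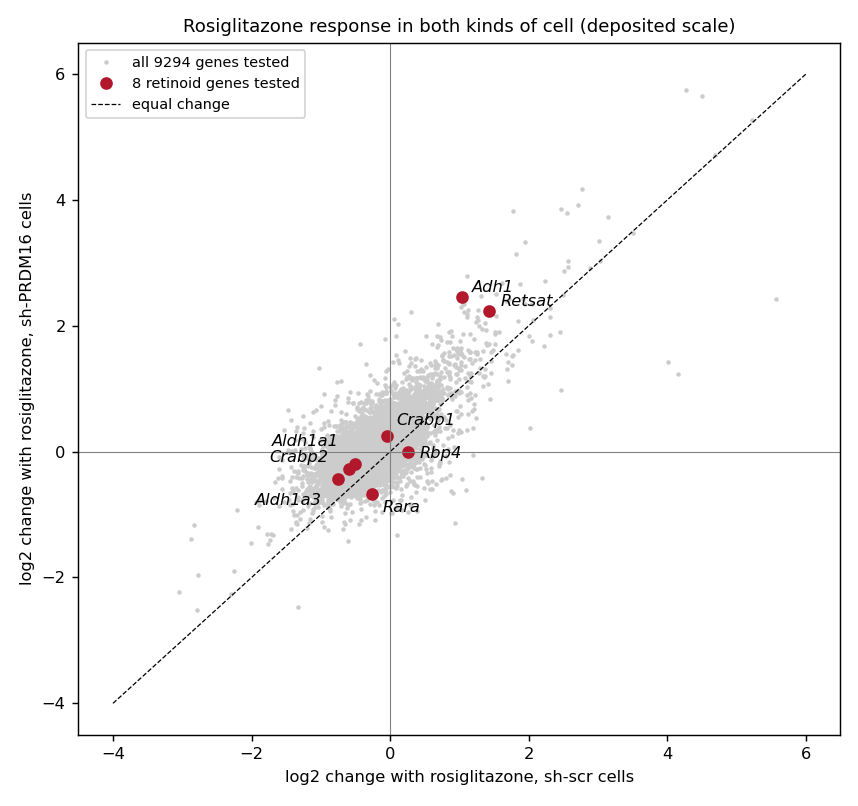
Log2 change with rosiglitazone in sh-PRDM16 cells (y axis) against the change in sh-scr cells (x axis) on the deposited scale. Grey points are all 9294 genes tested, red points the 8 retinoid genes, and the dashed line marks equal changes. Adh1 (2.46 against 1.03) and Retsat (2.23 against 1.43) lie above the line in the upper right.

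A wider list of 63 genes covered retinoid handling and included general lipid genes, with Lipe and Lpl also among the adipocyte markers above. The annotation pairs 53 of them with a probe set, and 34 passed the filter. With rosiglitazone in sh-PRDM16 cells 16 of 34 rose and none fell in limma, also at an unadjusted p under 0.05 (median change 0.41, against 0.00 over all genes). In sh-scr cells 10 rose and 7 fell (median 0.05, against -0.31), and on median-centred arrays 17 rose and 4 fell. In sh-PRDM16 against sh-scr cells with rosiglitazone, 3 were higher and 6 lower (median -0.09, against 0.15), and on median-centred arrays 2 were higher and 13 lower. Without rosiglitazone none was higher in limma, also at an unadjusted p under 0.05, and 13 were lower (median -0.40, against -0.16), and on median-centred arrays 1 was higher (Rdh13) and 13 were lower. Of all genes on the deposited scale, 10.1% rose and 3.31% fell in sh-PRDM16 cells, and 5.2% rose and 32.2% fell in sh-scr cells. Between the shRNAs 10.6% were higher and 4.62% lower with rosiglitazone, and 1.99% were higher and 15.5% lower without it. On median-centred arrays 1322 of all 9294 genes rose and 1103 fell in sh-scr cells. Between the shRNAs there, 1146 were higher and 1141 lower with rosiglitazone, and 818 were higher and 1170 lower without it.

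The tested genes of ester storage and release moved in one direction. All 5 tested of the 8 listed rose with rosiglitazone in both kinds of cell. Of all genes, 10.1% rose in sh-PRDM16 cells and 5.2% in sh-scr cells on the deposited scale. The 5 were Dgat1, which can esterify retinol as well as diglyceride, the lipases Lipe and Pnpla2, and the carboxylesterases Ces1d and Ces1f. Ces1f rose by 3.14 in sh-PRDM16 cells and by 1.82 in sh-scr cells, and Ces1d by 2.71 and 2.24 (limma, adjusted p 0.000723 or below). Ces1f read 218.8 and 277.8 in treated sh-PRDM16 cells against 8.0 and 21.0 in untreated sh-PRDM16 cells, and 482.4 and 417.5 in treated sh-scr cells against 107.1 and 125.1 in untreated sh-scr cells. The same 5 fell in sh-PRDM16 cells without rosiglitazone (median -1.43), and 3 of them fell with it (Ces1d, Ces1f and Pnpla2), or all 5 on median-centred arrays. Of all genes, 15.5% were lower without the drug and 4.62% with it on the deposited scale. On median-centred arrays 1141 of 9294 genes were lower with it. Lipases and esterases act on triglyceride too, and Lipe is also among the adipocyte markers above. Ces1d and Ces1f are related members of 1 gene cluster, so shared hybridisation between them is possible and was not tested.

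Among transport and uptake genes, Rbp7, a cytosolic retinol-binding protein, read 84.8 and 52.5 in treated sh-PRDM16 cells against 3.8 and 2.1 in untreated sh-PRDM16 cells, and 102.4 and 73.3 in treated sh-scr cells against 8.1 and 1.9 in untreated sh-scr cells. All 4 untreated values lay below the pseudocount, so Rbp7 passed the filter through its treated groups, and its calls, which the counts of the wider list include, are read as no result. The scavenger receptors Cd36 and Scarb1 rose by 1.28 and 1.46 in sh-PRDM16 cells, and in sh-scr cells Scarb1 rose by 0.44 while Cd36 passed on median-centred and quantile-normalized arrays and not on the deposited scale. Stra6, the RBP4 receptor, lay between 2.7 and 12.6 and Lrat, which esterifies retinol, between 0.9 and 13.3 on all arrays. Both failed the filter.

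Between retinol and retinaldehyde, 12 of 20 listed genes were tested. Dhrs3 and Dhrs4, short-chain reductases that turn retinaldehyde into retinol, rose with the drug in both kinds of cell, Dhrs3 by 0.70 in sh-PRDM16 and 0.47 in sh-scr cells and Dhrs4 by 0.96 and 0.57 (limma, adjusted p 0.0360 or below). Rdh12, another such reductase, went opposite ways: it read 158.0 and 189.2 in treated sh-PRDM16 cells against 100.0 and 95.5 in untreated sh-PRDM16 cells, and 45.2 and 55.9 in treated sh-scr cells against 119.2 and 114.6 in untreated sh-scr cells. It rose by 0.73 in sh-PRDM16 cells and fell by 1.00 in sh-scr cells. The difference between these responses was 1.74 (SE 0.20, adjusted p 0.00943 in limma), the only one of the 34 that passed, where 0.667% of all genes did. On median-centred arrays none passed in limma. At an unadjusted p under 0.05 in limma, 12 were higher and 3 lower there, beside 1244 of 9294 genes in either direction. Rdh10, the main retinol dehydrogenase of development, did not pass in any comparison.

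Of the other ALDH1A genes, Aldh1a7, a mouse paralog of Aldh1a1, read 6203.3 and 7283.0 in treated sh-PRDM16 cells against 1975.7 and 1921.6 in untreated sh-PRDM16 cells, and 10436.7 and 11869.0 in treated sh-scr cells against 5994.3 and 7398.6 in untreated sh-scr cells. It rose by 1.78 and 0.74 with the drug and fell by 1.76 in untreated sh-PRDM16 against untreated sh-scr cells (limma, adjusted p 0.00861 or below). Aldh1a1 and Aldh1a7 thus had opposite signs with the drug in both kinds of cell. The Aldh1a1 change passed in sh-scr cells only on the deposited scale, and in neither kind of cell on median-centred arrays. Cross-hybridisation between these close paralogs was not tested. Aldh1a2, the main retinoic acid synthase of embryos, fell by 0.92 in sh-scr cells (adjusted p 0.00814 in limma) and had a change of -0.28 in sh-PRDM16 cells that did not pass. Cyp26a1, which breaks retinoic acid down, lay between 2.7 and 8.1 on all arrays, and Cyp26b1 was not annotated.

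Among receptors, Rxrg read 62.4 and 108.5 in treated sh-PRDM16 cells against 9.5 and 7.1 in untreated sh-PRDM16 cells, and 142.7 and 69.1 in treated sh-scr cells against 70.1 and 118.0 in untreated sh-scr cells. Untreated sh-PRDM16 cells stood below the other 3 groups, which overlapped. Rxrg rose by 2.02 with the drug in sh-PRDM16 cells and fell by 2.15 in untreated sh-PRDM16 against untreated sh-scr cells (limma, adjusted p 0.00333 and 0.00238). Rxra fell by 0.80 in sh-scr cells and Rxrb by 0.54 (limma, adjusted p 0.00668 and 0.0413); on median-centred arrays Rxrb did not pass. Rarg passed in none of the comparisons.

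**Figure D4:**
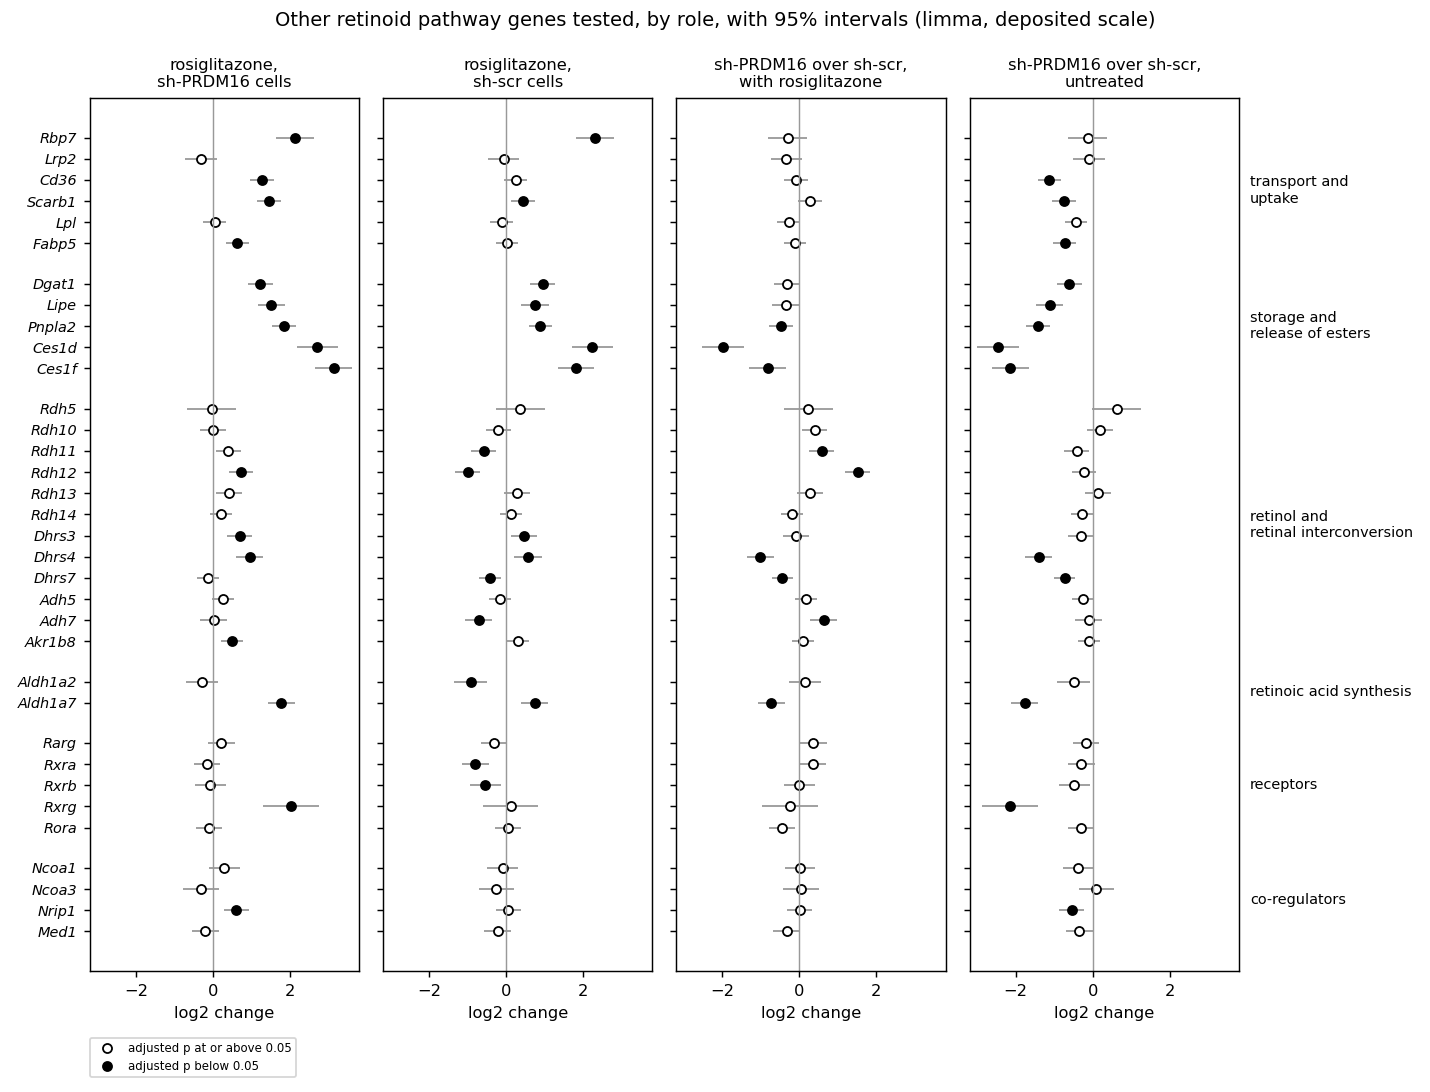
Log2 change (x axis, deposited scale) with limma 95% intervals of the 34 genes of the wider list tested, grouped by role, in the drug and shRNA comparisons. Filled points have an adjusted p below 0.05. All 5 ester storage and release genes lie above 0 with rosiglitazone in both kinds of cell and below 0 in untreated sh-PRDM16 cells.

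Genes known to be raised by retinoic acid in some cell type did not move as one. Of 26 listed, 22 were annotated and 17 tested. With rosiglitazone 4 rose and 2 fell in sh-PRDM16 cells, and 3 rose and 6 fell in sh-scr cells. Of all genes, 10.1% rose and 3.31% fell in sh-PRDM16 cells, and 5.2% rose and 32.2% fell in sh-scr cells. On median-centred arrays 4 rose and 3 fell in sh-PRDM16 cells, and 5 rose and 3 fell in sh-scr cells. Of all 9294 genes, 1347 rose and 917 fell there in sh-PRDM16 cells, and 1322 rose and 1103 fell in sh-scr cells. In sh-PRDM16 against sh-scr cells 2 were higher and 2 lower with rosiglitazone. Without it none was higher in limma, also at an unadjusted p under 0.05, and 2 were lower. Of all genes, 10.6% were higher and 4.62% lower with the drug, and 1.99% were higher and 15.5% lower without it. On median-centred arrays 1 was higher and 2 were lower with rosiglitazone, and 2 were higher and 2 lower without it. Of all 9294 genes, 1146 were higher there and 1141 lower with rosiglitazone, and 818 were higher and 1170 lower without it. Dhrs3 and Pck1 rose in both kinds of cell, except that Pck1 did not pass in sh-PRDM16 cells on median-centred arrays. Ucp1 read 81.9 and 101.0 in treated against 4.6 and 3.4 in untreated sh-PRDM16 cells. In sh-scr cells it read 1295.5 and 1322.0 treated against 5.2 and 20.6 untreated. It passed the filter through its treated groups, so its calls, which the counts of this list include, are read as no result. Pck1 is also a known PPARγ target and Ucp1 a brown fat gene. The homeobox gene Meis1 and Rai14 fell in both kinds of cell, by 0.60 and 0.64 in sh-PRDM16 cells and by 0.91 and 0.81 in sh-scr cells.

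The genes most like each member were found as those with the smallest root mean square difference between centred log2 profiles over the 8 arrays. For Retsat they were Hsdl2, Krt79 and Chchd10, at 0.129 to 0.158 against a root mean square of 0.976 for Retsat itself. For Adh1 they were Gpd1, H2-Q10 and Prxl2a, at 0.119 to 0.189 against 1.14. For Rbp4 they were Selenbp1, Mc2r and Tlcd2, at 0.113 to 0.157 against 0.690, and for Crabp1 Aurka, Hmmr and Cenpa, at 0.170 to 0.199 against 0.764. Smaller profiles gave Rmnd5a, Eif4e3 and Prnp for Aldh1a1, Atf6, Glmp and Sh3d19 for Aldh1a3, and Pitpnc1, Tgfb1i1 and Mgat2 for Crabp2. These genes were chosen for their likeness, so the values carry no test.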

How the data were processed

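RNA of 8 samples was measured on 1 array each. Biotin-labelled cRNA was made by in vitro transcription from oligo-dT-primed cDNA of Trizol-extracted RNA, per the labels' protocols. The authors deposited linear intensity values for 22690 probe sets; software and scaling are items not given in the sources used here, and no detection calls were used. Gene names came from the platform annotation: 20380 probe sets had 1 gene, 691 several, 1555 were unlisted, and 64 were controls. Tests used those with 1 gene.

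From the deposited intensity, log2(intensity + 16) was computed, which understates changes of dim genes. Each gene was read from its brightest probe set, and the lowest 25% of 12393 genes were left out, leaving 9294. limma 3.58.1 (lmFit, eBayes; R 4.3.3) fitted 1 mean per group to all 8 arrays, without a replicate block, and 5 contrasts were tested, two-sided, with Benjamini-Hochberg adjustment. The same fit was run on every probe set with 1 gene. Fits were tested on simulated data. Same-numbered arrays did not deviate together (r between -0.02 and 0.05 across 9294 genes), so numbers were not taken as pairs. Precision is limited by having 2 arrays a group.

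Alternatives were median-centred and quantile-normalized arrays, other filters, pseudocounts, probe set rules, variance priors, fits of 4 arrays, the replicate block and leaving out each array; the block on median-centred arrays and every probe set on median-centred arrays were added after seeing the data. The 9 members and the gene lists were chosen with earlier results of these data known. Named genes are all members, the 3 genes most like each member called in any contrast, a set of retinoid genes named whatever they do, and of the wider list up to 6 of the largest called changes per contrast; Cd36, Scarb1, Dgat1, Lipe, Rdh13 and the retinoic acid response genes were named after their values were seen.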

Additional observations from a re-analysis of the deposited data

Results flagged for a closer look

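The rosiglitazone response of Adh1 differed between sh-PRDM16 and sh-scr cells by 1.43 on the log2 scale (SE 0.22, adjusted p 0.0331 in limma), with all 4 treated arrays above the untreated arrays of their own shRNA. It was singled out because the difference between the responses passed its own test. The values it rests on, and the alternatives that lose the call, are given with the results, and no explanation was tested.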

How the results depend on the processing

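Of 16 member changes called on the deposited scale, each under up to 20 alternatives, 279 of 318 alternative values kept direction and call, 39 kept direction and lost the call, and 0 changed direction. Adh1 and Retsat with rosiglitazone in both kinds of cell and in sh-PRDM16 cells without it, and Crabp1 and Rbp4 in both shRNA comparisons, kept the call in all of them. Of 464 values of the 24 uncalled changes, 24 became called and 24 changed direction; the cause was not tested. Changes that turned were Crabp1 with rosiglitazone in sh-scr cells (0.25 on median-centred arrays with or without the replicate block, 0.26 on quantile-normalized arrays, -0.178 to 0.0908 with 1 array left out), Rara there (0.0293 on median-centred arrays with or without the block), Rbp4 with rosiglitazone in sh-PRDM16 cells (-0.0999 to 0.0802 with 1 array left out), Aldh1a3 between the shRNAs without rosiglitazone (0.0533 as the mean of its probe sets) and with it (-0.0302 on median-centred arrays with or without the block, -0.0635 on quantile-normalized arrays, -0.044 to 0.235 with 1 array left out), and Rara between the shRNAs with 1 array left out (-0.134 to 0.453 without rosiglitazone, -0.525 to 0.0178 with it). In the difference between the responses, Crabp1 turned to -0.0183 on median-centred arrays with or without the block and -0.0703 on quantile-normalized arrays, Crabp2 to -0.0028 on median-centred arrays with or without the block, and on quantile-normalized arrays Aldh1a1 to -0.0344 and Aldh1a3 to -0.0485. The count of members called moved from 5 to 3 with rosiglitazone in sh-scr cells with 1 array left out (range 3 to 5), from 2 to 4 in sh-PRDM16 cells on quantile-normalized arrays and with the block on median-centred arrays, and from 3 to 5 for sh-PRDM16 against sh-scr with rosiglitazone on median-centred arrays, where 4 probe sets were called in place of 2. For the difference between the responses the count of 1 became 0 on median-centred and quantile-normalized arrays, with no filter, with pseudocount 1, with every probe set, and with the block on median-centred arrays, 2 with the lowest 50% left out, pseudocount 64 or a trended prior, and 0 to 1 with 1 array left out. The replicate block alone gave 3 and 5 called members with rosiglitazone in sh-PRDM16 and sh-scr cells, 3 and 5 between the shRNAs with and without the drug, and 1 for the difference; replicates share only a number. The change of Rara with rosiglitazone in sh-PRDM16 cells (-0.68) passed with the block (adjusted p 0.0238, or 0.0405 on median-centred arrays) and in the fit of the 4 arrays compared (0.0178), and over the other alternatives adjusted p ran from 0.0501 to 0.401. Dim signal limits Rara, Rarb and Crabp2.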
